A study of Mus musculus with 9 samples.

Results

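The mitochondrial ribosomal proteins are described here at the level of their transcripts in MIN6 cells, an insulin-secreting line from a mouse insulinoma that is used as a beta-cell model. The members are all protein-coding genes whose symbol begins with Mrpl or Mrps followed by a number, with transcript values summed per gene. This gave 78 of the 52408 genes that could be named in the deposited table: 51 of the large subunit, 26 of the small subunit, and Mrps36, whose product is known as a component of the 2-oxoglutarate dehydrogenase complex rather than of the ribosome. Mrps30 and Mrps18a carry small-subunit symbols but are counted with the large subunit, where their products sit.

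Total RNA was sequenced from 3 groups of 3 libraries. The first were cells that overexpressed Nr4a1, an orphan nuclear receptor, and were given EGCG, the main catechin of green tea (OE + EGCG). The second were cells overexpressing Nr4a1 without EGCG (OE), and the third were untransfected cells (control). The sample titles and column headers name no batch, and the 9 libraries were treated as 1 batch. The controls were not transfected, so transfection and Nr4a1 cannot be told apart in OE against control. Cells given EGCG without overexpression were not analysed here, and the sources used here do not give the dose and duration of EGCG or how cells were transfected. Whether the triplicates were separate cultures is not stated, so p-values measure only how these libraries vary, which may be technical.

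The mitochondrial ribosome translates the few messages of mitochondrial DNA, all of which encode membrane subunits of the respiratory chain and ATP synthase. Its RNAs are encoded in the mitochondrion, but every one of its proteins is encoded in the nucleus, made in the cytosol and imported. Some of those proteins have counterparts in bacterial ribosomes and others were acquired in the mitochondrial lineage. In beta cells, ATP made by the respiratory chain links glucose metabolism to insulin release.

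Values are TPM (relative transcript abundance, corrected for length and scaled to the same total in each library) as the authors deposited them. Depth cannot be read back from TPM and is unknown, so values carry no counting interval. Nr4a1 was at 46.25, 60.91 and 54.46 TPM in OE + EGCG, at 128.3, 122.5 and 165.2 TPM in OE, and at 0.63, 0.78 and 0.76 TPM in control. Of 10 beta-cell genes, Ins1, Pdx1, Nkx6-1, Mafa, Iapp, G6pc2, Slc30a8 and Chga were at 1.98 TPM or more in every library, Slc2a2 was at 0.49 to 3.73 TPM, and Ucn3 was at or below 0.49 TPM. Their levels differed between groups: of the 9 tested, 6 were higher (Ins1 by 1.37 on the log2 scale) and 2 lower (Mafa by 0.68) in OE than in control, and 1 was higher (Slc2a2) and 5 lower with EGCG than in OE. Of 13 markers of other cells, the alpha-cell hormone gene Gcg was at 290.0, 323.5 and 299.6 TPM in OE + EGCG, 743.8, 726.5 and 807.7 TPM in OE, and 313.9, 332.0 and 322.4 TPM in control. The other 12 were at or below 0.47 TPM, with Prss1 listed at 0 in every library. Nuclear protein-coding genes held 20.6% ± 0.261 of the TPM in OE + EGCG, 22.8% ± 0.243 in OE and 21.5% ± 0.267 in control (SD, n = 3 each). The summed TPM of 1753 chemoreceptor genes was 9.29 to 13.8 in OE + EGCG, 4.78 to 5.42 in OE, and 121.1, 101.2 and 61.32 in control replicates 1, 2 and 3. Every control library thus lay far above every transfected library, a difference that runs along OE against control and whose source was not tested. The third control library also stood apart from the other 2.

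All 78 members passed the filter of at least 1 TPM in at least 3 libraries. Their mean over the 9 libraries ran from 4.42 TPM to 64.6 TPM, with a median of 14.9 TPM, and no member was under 3.5 TPM in any library. The highest on this length-corrected scale were Mrps21, Mrpl42 and Mrps33, and the lowest were Mrps2, Mrpl35 and Mrps6. The order of the levels was much alike in the groups: Spearman's rho over the 78 members was 0.96 for OE + EGCG with OE, 0.95 for OE with control and 0.98 for OE + EGCG with control, a description across genes of libraries that share a cell line. Annotated length and level ran against each other across members (rho = -0.71). Members lie on 17 chromosomes, with at most 11 on any of them (chromosome 11), so they do not form a single gene cluster. In the annotation 36 members overlap a gene on the other strand and 13 a gene on the same strand; the library kit marks strand, but the sources used here do not say whether the counting used it, so reads of such pairs may be shared.

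The members as a group stood higher in OE than in either of the other groups. Their summed TPM was 1330, 1403 and 1378 in OE + EGCG, 1608, 1597 and 1625 in OE, and 1396, 1436 and 1481 in control. The 3 OE libraries lay above all of the other 6, while the ranges of OE + EGCG and control overlapped. As a share of nuclear protein-coding TPM the members took 0.667% ± 0.0103 in OE + EGCG, 0.705% ± 0.00742 in OE and 0.668% ± 0.0266 in control (SD, n = 3 each). On that basis control replicate 3, at 0.698%, fell within the range of the OE libraries, whose lowest was 0.697%. Gcg was likewise highest in the 3 OE libraries, as were Ins1, Pdx1, Nkx6-1, G6pc2 and Slc30a8. Mafa and Chga were instead highest in the control libraries, and Slc2a2 in the OE + EGCG libraries. The part of these genes in the members' values was not tested. In bulk RNA a change in the number of cells of a kind and a change in RNA per cell cannot be told apart.

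**Figure D1:**
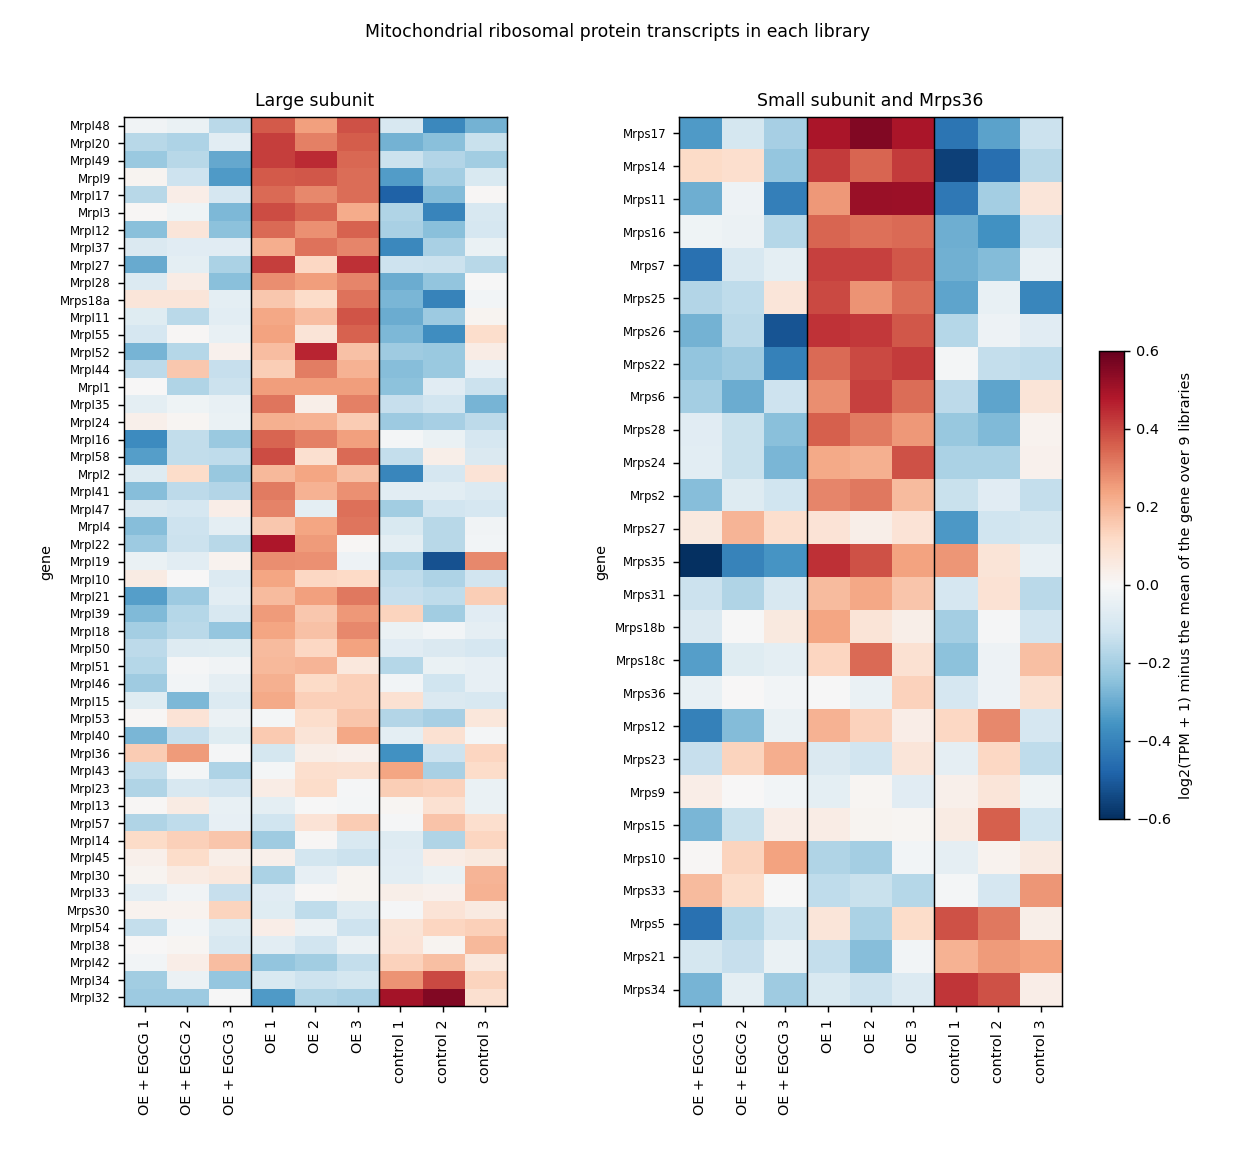
Each row is a member and each column a library, in the order OE + EGCG, OE and control; colour is log2(TPM + 1) minus the mean of that gene over the 9 libraries, and rows are sorted by log2 fold change in OE against control. Most rows are red in the 3 OE libraries and pale or blue in the other 6, while the bottom rows (Mrpl34 and Mrpl32 at left, Mrps21 and Mrps34 at right) are highest in control.

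Nr4a1 overexpression against untransfected control gave 49 members called higher, 8 lower and 21 not called (adjusted p under 0.05 by limma on log2(TPM + 1), with Benjamini-Hochberg adjustment over the 11950 genes tested). Of all tested genes 38.2% were called higher and 21.3% lower, against 62.8% and 10.3% of the members. Tested protein-coding genes nearer to the members in level or length gave a closer background. Of the 2642 with mean TPM in the members' interquartile range, 45.65% were called higher and 18.77% lower. Their median log2 fold change was 0.15. Of the 1170 within the members' range of mean TPM and interquartile range of length, 44.87% were higher and 18.12% lower. The median log2 fold change was 0.30 for the members and 0.10 for all tested genes, and the members ran from -0.62 to 0.81. In 47 members every OE library lay above every control library, and in 10 every OE library lay below; over all tested genes these shares were 41.3% and 23.6%. The changes were small: 15 called members moved by more than 0.5 on the log2 scale.

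The split depends on how libraries are scaled, while the members' median stayed positive, at 0.19, 0.17 and 0.22, under the 3 scalings tried. Median-ratio scaling gave 35 of the 78 members higher and 15 lower (29.6% and 29.7% of all tested genes). Quantile normalization gave 31 and 18 of the 78 (29.8% and 28.4% of all tested genes). Rescaling to nuclear protein-coding genes gave 39 and 14 of the 78 (31.9% and 26.9% of all tested genes). Of the 49 members called higher, 30 were also called higher under each of these scalings, and the 8 called lower were lower under each. Called without each of the 6 libraries of the 2 groups in turn were 39 of the 49 and 5 of the 8; without OE replicate 2 or OE replicate 3 the number called lower was 5.

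The small subunit, which decodes the message, had 16 of 26 members called higher and 2 lower, with a median log2 fold change of 0.26. Its largest difference was in Mrps17, a protein with a bacterial counterpart, at 22.28, 26.36 and 24.65 TPM in OE + EGCG, 40.43, 42.29 and 40.37 TPM in OE, and 20.73, 22.55 and 25.97 TPM in control. The OE libraries lay well clear of both other groups, which overlapped each other. Mrps17 was 1.78-fold higher in OE than in control by mean TPM, a log2 difference of 0.81 ± 0.086 (SE; adjusted p = 5.52e-05, limma with Benjamini-Hochberg).

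Mrps14 was at 21.06, 20.87 and 16.32 TPM in OE + EGCG, 26.27, 24.96 and 26.23 TPM in OE, and 12.82, 13.9 and 17.17 TPM in control. The groups did not overlap between OE and control, with a log2 difference of 0.79 ± 0.117 (SE; limma, Benjamini-Hochberg adjusted p = 0.000396). Mrps16, variants of which cause a combined respiratory chain deficiency in humans, was tightly grouped in OE: 15.35, 15.25 and 13.81 TPM in OE + EGCG, 20.26, 19.98 and 20.11 TPM in OE, and 12.59, 11.94 and 14.22 TPM in control. Its 3 groups rank OE first, and the difference between OE and control was 0.60 ± 0.068 on the log2 scale (SE; limma, Benjamini-Hochberg adjusted p = 7.92e-05).

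Mrps11, Mrps7 and Mrps25 rose by 0.62, 0.60 and 0.58 on the log2 scale. Mrps11 and Mrps7 have bacterial counterparts and help build the platform and head of the subunit, while Mrps25 is specific to mitochondria. Mrps11 overlaps Mrpl46 on the other strand, a second member that rose by 0.22. Mrps22 and Mrps26, both specific to mitochondria, rose by 0.49 and 0.50, and Mrps2 and Mrps6 rose by 0.38 and 0.47 from among the lowest levels of the family. Mrps18b, one of a trio of related proteins, rose by 0.23; Mrps18c had an estimate of 0.22 with an adjusted p of 0.145 (limma, Benjamini-Hochberg), and the large-subunit paralogue Mrps18a rose by 0.43. Mrps12, the counterpart of the bacterial protein that governs decoding accuracy, was at 28.17, 26.81 and 24.97 TPM in OE and 26.53, 29.79 and 22.54 TPM in control, ranges that overlapped (0.03 ± 0.114 SE). Mrps5, whose bacterial counterpart lies where the message enters, was at 19.87, 16.38 and 20.43 TPM in OE and 24.88, 23.74 and 19.37 TPM in control and was not called.

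The large subunit, which joins the amino acids, had 33 of 51 members called higher and 6 lower, with a median of 0.32. Members with bacterial counterparts were 21 of 30 higher and 2 lower; members specific to mitochondria were 12 of 21 higher and 4 lower. Mrpl49, specific to mitochondria, had the smallest adjusted p of all members: 11.68, 12.17 and 10.96 TPM in OE + EGCG, 18.71, 19.18 and 17.78 TPM in OE, and 12.52, 12.07 and 11.8 TPM in control. Every OE library was at least 17.78 TPM and none of the other 6 was above 12.52 TPM (0.57 ± 0.055 SE on the log2 scale against control; adjusted p = 2.88e-05, limma with Benjamini-Hochberg). Mrpl20, whose bacterial counterpart acts early in subunit assembly, was at 33.5, 33.01 and 36.02 TPM in OE + EGCG, 50.5, 46.66 and 48.79 TPM in OE, and 30.73, 31.45 and 34.28 TPM in control. It rose by 0.58 ± 0.060 (SE; limma, Benjamini-Hochberg adjusted p = 4.48e-05), and Mrpl48, specific to mitochondria, rose by 0.59.

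The stalk, which recruits the translation factors, was represented by Mrpl10, Mrpl11 and Mrpl12. They rose by 0.31, 0.43 and 0.50 on the log2 scale. Mrpl12, which is also known to bind the mitochondrial RNA polymerase, was at 9.42, 8.96 and 9.51 TPM in OE and 6.19, 5.93 and 6.68 TPM in control, with no overlap. Mrpl44, which has a ribonuclease III fold, rose by 0.40, Mrpl41 by 0.34, and Mrpl58, a peptidyl-tRNA hydrolase that frees stalled ribosomes, by 0.34. Mrpl45, which sits at the polypeptide exit near the inner membrane, was at 7.48, 6.69 and 6.59 TPM in OE and 6.93, 7.57 and 7.67 TPM in control, which overlap (-0.08 ± 0.063 SE).

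The 8 members called lower were Mrpl32, Mrps34, Mrpl34, Mrps21, Mrpl42, Mrpl38, Mrpl54 and Mrps30, the last 3 of them by 0.14 to 0.17 on the log2 scale. Mrpl32, which the m-AAA protease must trim before it joins the large subunit, was at 19.83, 19.86 and 23.22 TPM in OE + EGCG, 18.15, 20.42 and 20.17 TPM in OE, and 33.27, 34.58 and 24.94 TPM in control. It fell by 0.62 ± 0.119 in OE (SE; limma, Benjamini-Hochberg adjusted p = 0.00172); control replicate 3 was the nearest of the controls to the other groups. The genes of the protease, Spg7 and Afg3l2, rose by 1.01 and 0.22.

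Mrps34, which stabilises the small ribosomal RNA, was at 11.83, 13.93 and 12.4 TPM in OE + EGCG, 13.61, 13.24 and 13.71 TPM in OE, and 19.9, 19.26 and 14.96 TPM in control. It fell by 0.38 ± 0.101 (SE; limma, Benjamini-Hochberg adjusted p = 0.00982), and it overlaps Nme3 on the same strand, so reads could be split between them. Mrps21, the most abundant member, was at 59.44, 58.11 and 62.28 TPM in OE + EGCG, 57.89, 53.52 and 63.39 TPM in OE, and 74.3, 76.64 and 75.99 TPM in control, the 3 control libraries being highest. It fell by 0.37 ± 0.064 (SE; limma, Benjamini-Hochberg adjusted p = 0.000936). Mrpl34 fell by 0.38 and Mrpl42 by 0.32.

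**Figure D2:**
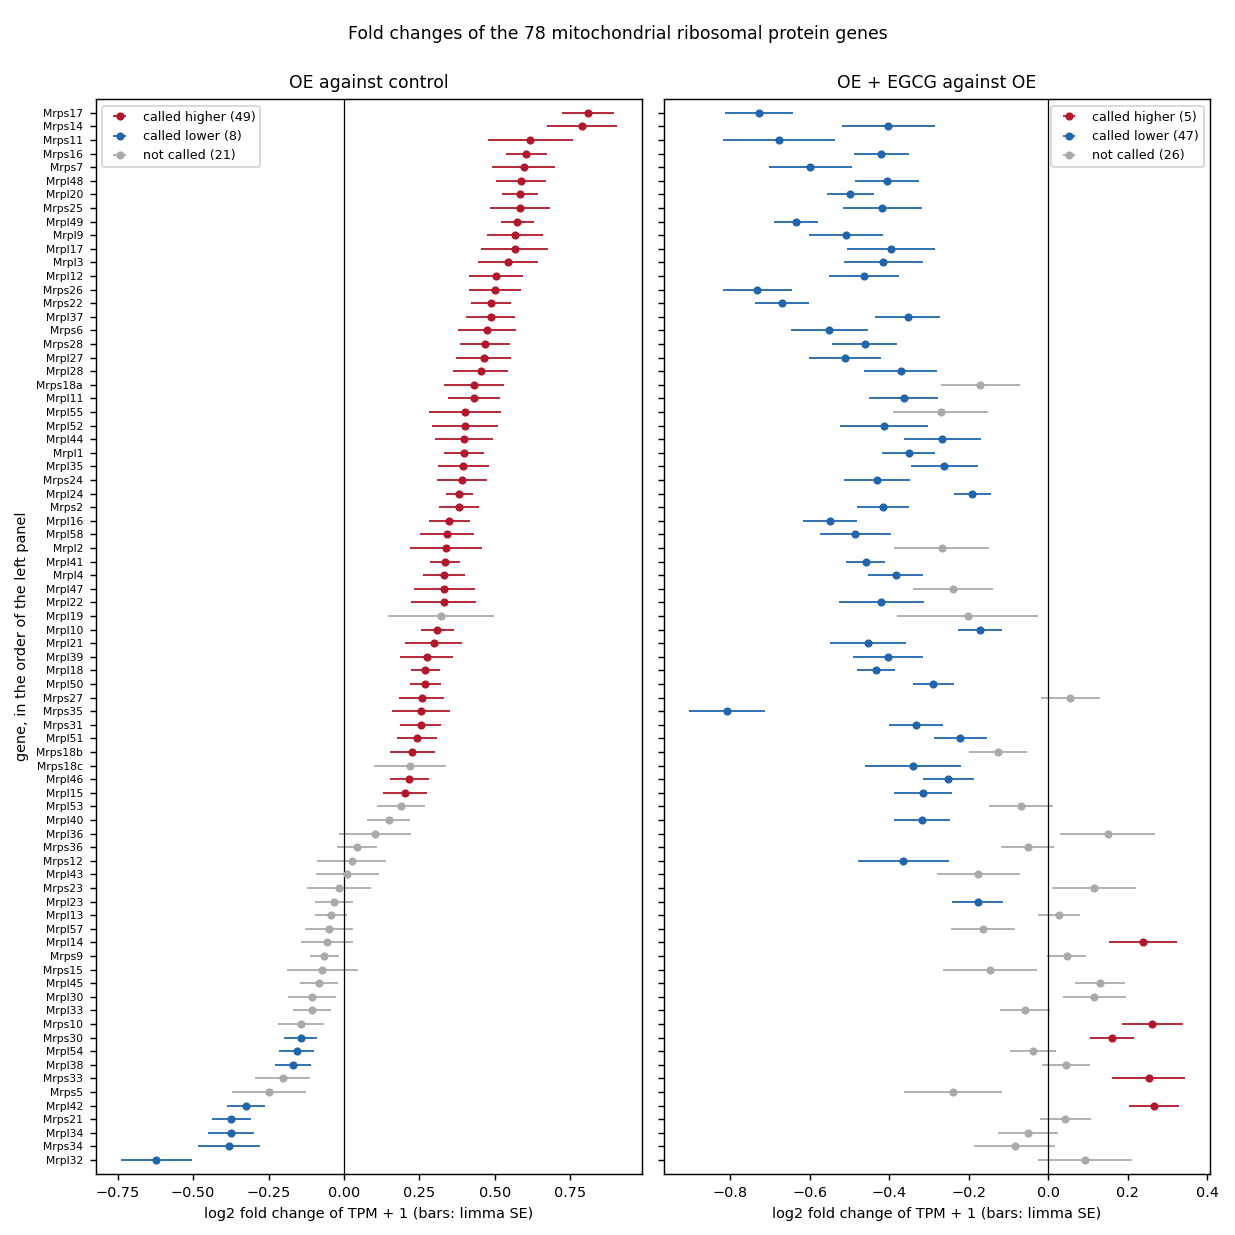
Points are log2 fold changes of TPM + 1 for each of the 78 members with limma standard errors, OE against control at left and OE + EGCG against OE at right, both in the order of the left panel; red points were called higher, blue lower and grey not called. At left 49 points are red, up to 0.81 for Mrps17, and at right 47 are blue, down to -0.81 for Mrps35; both comparisons use the same OE libraries.

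Fewer of the abundant members were called higher. Among the 26 members of highest mean TPM, 10 were called higher and 5 lower, against 20 and 2 of the middle 26 and 19 and 1 of the lowest 26. The shares of the most abundant 26, 38.5% and 19.2%, are near those of all tested genes (38.2% and 21.3%). Tested protein-coding genes within the members' range of mean TPM had 43.82% higher and 19.69% lower. The share higher of the most abundant 26 is below that. Across the 78 members the fold change ran against mean TPM (Spearman's rho = -0.30) and with annotated length (rho = 0.28). Over all 11950 tested genes, which share the same libraries, the values were 0.14 and -0.05. By length, 11 of the 26 shortest members were called higher and 4 lower, against 20 and 1 of the 26 longest; the shares of the shortest, 42.3% and 15.4%, are also nearer to those of all tested genes.

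OE + EGCG against OE gave values mostly in the other direction: 47 members were called lower than in OE, 5 higher and 26 not called. Nr4a1 itself was called lower in OE + EGCG than in OE, with a log2 difference of -1.34 (limma, Benjamini-Hochberg adjusted p = 3.71e-05). EGCG and a lower level of Nr4a1 therefore cannot be told apart in this comparison. Of all tested genes 34.1% were called lower and 18.8% higher, against 60.3% and 6.41% of the members. Of the 2642 protein-coding genes in the members' interquartile range of mean TPM, 43.0% were lower and 15.67% higher. Of the 1170 within the members' range of mean TPM and interquartile range of length, 43.59% were lower and 15.21% higher. The median log2 fold change was -0.30 for the members and -0.09 for all tested genes. In 49 members every OE + EGCG library lay below every OE library and in 6 above; over all tested genes these shares were 41.4% and 23.2%. This comparison shares its OE libraries with the one against control, so opposite signs in the pair are partly built in. Median-ratio scaling gave 35 of the 78 members lower and 7 higher (25.8% and 25.6% of all tested genes). Quantile normalization gave 32 and 11 of the 78 (25.9% and 23.6% of all tested genes). Rescaling to nuclear protein-coding genes gave 30 and 11 of the 78 (21.8% and 29.0% of all tested genes). That rescaling moves the median of all genes from -0.09 to 0.04 and that of the members to -0.16. Of the 47 called lower, 30 were lower under each scaling and 38 without each library in turn.

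The small subunit had 16 of 26 members lower and 2 higher, the large subunit 31 of 51 lower and 3 higher. Mrps35, specific to mitochondria, was at 14.29, 16.63 and 17.19 TPM in OE + EGCG, 30.53, 29.29 and 26.54 TPM in OE, and 26.96, 23.51 and 21.54 TPM in control. OE + EGCG lay below both other groups without overlap, and Mrps35 fell by 0.81 ± 0.096 against OE (SE; adjusted p = 0.000144, limma with Benjamini-Hochberg), to 0.557 of the OE mean. Mrps26 was at 8.79, 9.63 and 7.31 TPM in OE + EGCG, 15.08, 14.97 and 14.42 TPM in OE, and 9.56, 10.65 and 10.37 TPM in control. It fell by 0.73 ± 0.086 against OE (SE; limma, Benjamini-Hochberg adjusted p = 0.000136).

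Mrps17, Mrps11 and Mrps22 fell by 0.73, 0.68 and 0.67 with EGCG, and Mrpl49, Mrps7 and Mrps6 by 0.63, 0.60 and 0.55. All 6 had risen in OE against control. The stalk members Mrpl10, Mrpl11 and Mrpl12 fell by 0.17, 0.36 and 0.46, Mrpl44 by 0.27, Mrpl41 by 0.46 and Mrpl58 by 0.48. Mrps12, not called in OE against control, was at 18.07, 20.09 and 23.52 TPM in OE + EGCG and 28.17, 26.81 and 24.97 TPM in OE, without overlap, and fell by 0.37 ± 0.114 (SE; limma, Benjamini-Hochberg adjusted p = 0.0237).

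The 5 members called higher with EGCG than in OE were Mrpl42, Mrps10, Mrps33, Mrpl14 and Mrps30. Mrpl42 was at 62.36, 64.91 and 71.74 TPM in OE + EGCG, 53.36, 54.34 and 56.97 TPM in OE, and 69.56, 71.47 and 65.98 TPM in control. The OE libraries were the lowest 3, and Mrpl42 rose by 0.27 ± 0.063 with EGCG (SE; limma, Benjamini-Hochberg adjusted p = 0.00631). Mrpl36, Mrpl45 and Mrpl30 had the next highest estimates (0.15, 0.13 and 0.12) and were not called. The other four of the 5 rose by 0.16 to 0.26, and of the 5 Mrpl42 alone was called without each library in turn; the number called higher was 2 or 3 when any 1 of the 6 OE + EGCG and OE libraries was left out.

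**Figure D3:**
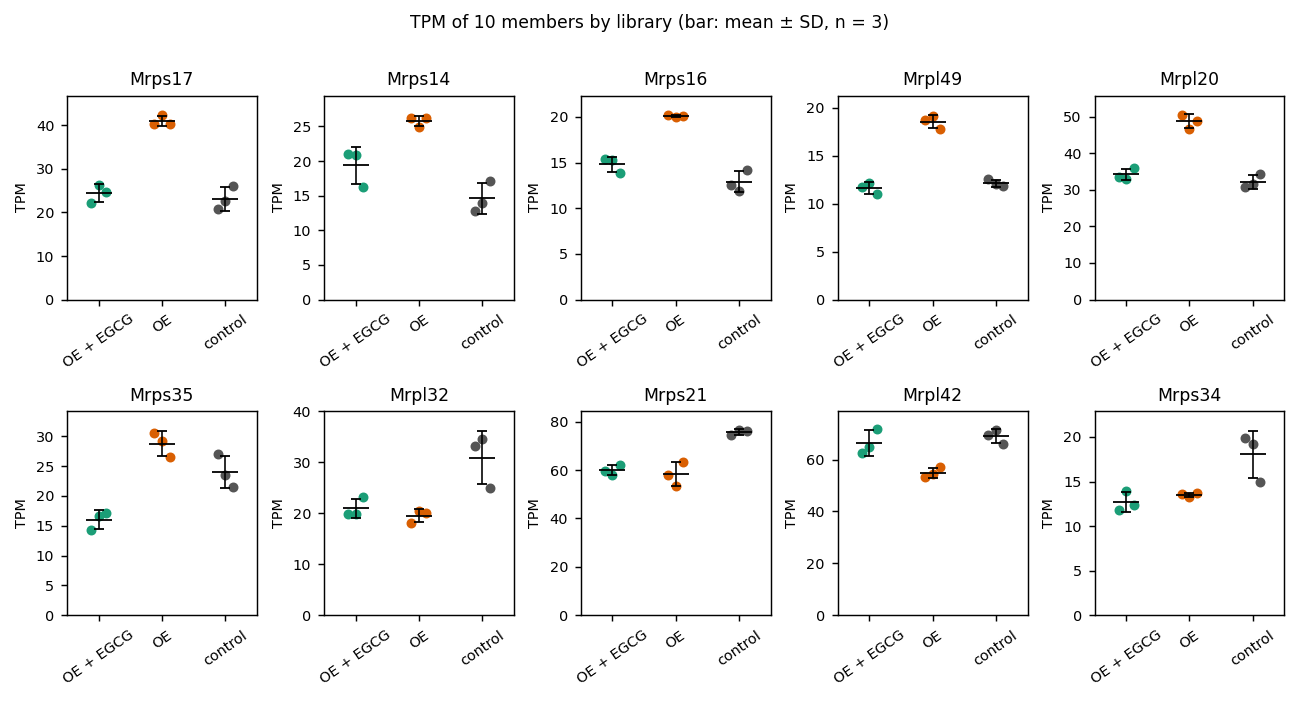
TPM of 10 members in each library, with the mean and SD (n = 3), groups from left to right OE + EGCG, OE and control. In the upper row the 3 OE libraries lie above the other 6 (Mrps17 at 40.37 to 42.29 TPM), in Mrps35 OE + EGCG is lowest, and in Mrpl32, Mrps21 and Mrps34 control is highest.

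OE + EGCG against control gave 2 members higher, 9 lower and 67 not called, where 11.1% of all tested genes were called higher and 7.1% lower; the medians were -0.01 for the members and 0.02 for all genes. The members' shares were 2.56% higher and 11.54% lower. Of the 1170 protein-coding genes within the members' range of mean TPM and interquartile range of length, 11.97% were higher and 12.22% lower. In 5 of the 78 members every OE + EGCG library lay above every control library and in 17 below. Of all tested genes 21% lay above and 13.8% below in this way. These counts rest on single libraries. Without control replicate 3, 11 members were called higher and 9 lower; without control replicate 1 or OE + EGCG replicate 1, 0 were higher and 3 lower. Without OE + EGCG replicate 2 the counts were 0 and 5, and without control replicate 2 they were 1 and 3. Median-ratio scaling gave 2 of the 78 members higher and 11 lower (10% and 9.66% of all tested genes). Quantile normalization gave 2 and 10 of the 78 (10.1% and 10.1% of all tested genes). Rescaling to nuclear protein-coding genes gave 5 and 6 of the 78 (19.4% and 5.56% of all tested genes), with a members' median of 0.05.

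Mrps27, an RNA-binding pentatricopeptide repeat protein, was higher with EGCG than in control by 0.31 ± 0.074 (SE; limma, Benjamini-Hochberg adjusted p = 0.0231): it was at 7.47, 8.36 and 7.72 TPM in OE + EGCG, 7.61, 7.31 and 7.61 TPM in OE, and 5.39, 6.48 and 6.55 TPM in control. Both transfected groups lay above control without overlap. The other member called higher was Mrpl24 (0.19). Mrps14, Mrps18a and Mrpl36 had estimates of 0.39, 0.26 and 0.25 and were not called, Mrps14 just past the threshold (adjusted p = 0.05002 by limma with Benjamini-Hochberg). The 9 called lower were Mrps35 (-0.55), Mrpl32 (-0.53), Mrps5 (-0.49), Mrps34 (-0.47), Mrpl34 (-0.43), Mrps21 (-0.33), Mrpl23 (-0.21), Mrpl54 (-0.20) and Mrpl18 (-0.16). Mrpl34, Mrps21 and Mrps35 were called without each library in turn.

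Read across the 3 comparisons, 40 of the 78 members were higher in OE than in control, lower with EGCG than in OE, and not called between OE + EGCG and control. Of all 11950 tested genes 23.5% had this pattern, part of which the shared OE libraries build in. Another 5 were lower than control in OE and in OE + EGCG with no call between those groups: Mrpl32, Mrpl34, Mrpl54, Mrps21 and Mrps34. Of all tested genes 2.53% had that pattern. Mrpl42 and Mrps30 were lower in OE, higher with EGCG and not called between OE + EGCG and control, as were 12.2% of all tested genes. Called in no comparison were 13 members, Mrps36 among them, and 29.4% of all tested genes. Mrps36 was at 36.19, 37.41 and 36.87 TPM in OE + EGCG, 37.26, 36.35 and 41.18 TPM in OE, and 34.81, 36.61 and 39.94 TPM in control, with overlapping ranges. A miss of the threshold between OE + EGCG and control does not show that the levels were equal.

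Promoters are shown because most members were called in 1 direction in OE, and factors known to act on mitochondrial genes of the nucleus have short motifs. RefSeq (GRCm38.p6) gave a window for 69 of the 78 members, and the 250 bases before the annotated start were searched on both strands for the NRF1 (nuclear respiratory factor 1) element, GCGCA and GCGC with 1 free base between them, CCGGAAG (ETS factors, of which GABP is known as nuclear respiratory factor 2), AAGATGGCG (YY1) and AAAGGTCA (NBRE, the element that Nr4a1 binds as a monomer). The windows below run 5′ to 3′ on the strand of the gene, with matches in capitals. The first 4 genes were called higher in OE and the last 2 lower; Mrps17 has no match, Mrps26 an ETS match and the other four an NRF1 match. Mrpl9 was picked after its values were seen.
Mrps17, chr5:129715247-129715496, plus strand: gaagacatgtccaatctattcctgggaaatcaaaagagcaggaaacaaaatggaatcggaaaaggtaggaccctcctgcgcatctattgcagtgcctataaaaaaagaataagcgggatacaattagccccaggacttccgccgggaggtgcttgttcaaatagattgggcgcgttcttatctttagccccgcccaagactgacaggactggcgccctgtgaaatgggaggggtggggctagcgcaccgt
Mrpl9, chr3:94443086-94443335, plus strand: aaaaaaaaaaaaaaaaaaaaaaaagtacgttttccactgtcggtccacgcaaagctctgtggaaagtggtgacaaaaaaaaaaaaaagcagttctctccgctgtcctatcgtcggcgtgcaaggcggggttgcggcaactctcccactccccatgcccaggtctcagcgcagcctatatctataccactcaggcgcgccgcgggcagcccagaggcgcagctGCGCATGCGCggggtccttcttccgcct
Mrps26, chr2:130563507-130563756, plus strand: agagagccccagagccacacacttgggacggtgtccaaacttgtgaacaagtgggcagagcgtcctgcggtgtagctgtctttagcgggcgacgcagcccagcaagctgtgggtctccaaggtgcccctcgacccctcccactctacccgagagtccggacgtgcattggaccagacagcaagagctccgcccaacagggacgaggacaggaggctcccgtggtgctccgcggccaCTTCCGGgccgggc
Mrpl12, chr11:120484387-120484636, plus strand: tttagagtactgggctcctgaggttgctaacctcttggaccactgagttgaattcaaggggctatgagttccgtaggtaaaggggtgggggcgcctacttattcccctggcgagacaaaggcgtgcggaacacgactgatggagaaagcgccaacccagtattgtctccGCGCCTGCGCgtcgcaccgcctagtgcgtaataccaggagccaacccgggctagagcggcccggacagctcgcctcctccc
Mrpl32, chr13:14613038-14613287, minus strand: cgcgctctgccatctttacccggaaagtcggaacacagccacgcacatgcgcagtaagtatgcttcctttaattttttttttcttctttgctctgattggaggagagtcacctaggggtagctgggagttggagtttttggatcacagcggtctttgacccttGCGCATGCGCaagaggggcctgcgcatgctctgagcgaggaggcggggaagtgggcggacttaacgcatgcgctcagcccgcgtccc
Mrps21, chr3:95871515-95871764, minus strand: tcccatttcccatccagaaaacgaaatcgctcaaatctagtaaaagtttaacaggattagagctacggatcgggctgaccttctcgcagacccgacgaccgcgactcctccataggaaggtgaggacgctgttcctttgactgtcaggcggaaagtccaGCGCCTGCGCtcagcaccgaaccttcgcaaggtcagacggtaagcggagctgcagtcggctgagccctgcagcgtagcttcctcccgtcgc

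The NRF1 letters were in 10 of the 69 windows (14.5%), against 4.23% of the windows of all 27025 genes and 10.4% of those of tested protein-coding genes. The ETS letters were in 18 (26.1%, against 7.83% and 17.3%) and the YY1 letters in 2 (2.9%, against 0.71% and 1.56%). The NBRE letters were in none of the 69, against 1.55% and 0.928%; this says only that these letters are absent from these windows. In all, 29 members had at least 1 of the NRF1, ETS and YY1 matches. Matches occurred in members called in both directions: NRF1 letters were in 5 of 45 members called higher in OE, 2 of 5 called lower and 3 of 19 not called, and ETS letters in 14 of 45, 1 of 5 and 3 of 19. In the windows printed above, the capitals start 28, 81, 87 and 91 bases before the start of Mrpl9, Mrpl12, Mrpl32 and Mrps21, and 14 bases before that of Mrps26. Each of these windows holds 1 match, so none overlaps another there, and a match is a string of letters rather than a measured site.

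Of 12 transcription factors and coactivators known to act on nuclear genes of mitochondria, 9 were tested, while Ppargc1b, Myc and Mycn did not pass the filter. Gabpb2 rose by 0.46 in OE against control, Pprc1 by 0.29 and Esrra by 0.26, and Yy1 fell by 0.35. Nrf1 itself was at 8.49, 9.81 and 9.1 TPM in OE and 8.47, 7.97 and 8.09 TPM in control, and Gabpa at 9.42, 8.74 and 9.08 TPM in OE and 11.64, 13.15 and 8.88 TPM in control; neither was called. With EGCG against OE, Gabpb1 and Gabpb2 fell by 0.33 each and the other 7 were not called. The shares called (33.3% higher and 11.1% lower in OE, 22.2% lower with EGCG) are below those of all tested genes, which were 38.2%, 21.3% and 34.1%.

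Proteins of the same ribosome that carry other names moved in both directions. Dap3, a GTP-binding protein of the small subunit, was at 23.62, 23 and 20.89 TPM in OE + EGCG, 26.65, 26.36 and 23.49 TPM in OE, and 16.52, 18.02 and 18.75 TPM in control, and rose by 0.50 in OE and by 0.32 in OE + EGCG against control. Gadd45gip1, Aurkaip1 and Ptcd3 rose in OE by 0.56, 0.41 and 0.26, and Chchd1 fell by 0.19. With EGCG against OE, Gadd45gip1 and Aurkaip1 fell by 0.69 and 0.32 and Chchd1 rose by 0.18.

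Genes that build and serve the ribosome were counted in the same fit. Of 31 genes of ribosome assembly and ribosomal RNA modification, 15 were higher and 2 lower in OE than in control (48.4% and 6.45%). With EGCG against OE, 1 was higher and 11 were lower (3.23% and 35.48%). Of all tested genes 38.2% were called higher and 21.3% lower in OE, and 18.8% higher and 34.1% lower with EGCG. The share of the assembly genes lower with EGCG is thus close to that of all tested genes. The 2 lower in OE were Malsu1, an assembly factor that keeps the subunits apart (-0.69), and Rbfa, which matures the small ribosomal RNA (-0.46), while the RNA methyltransferases Mrm2 and Mrm3 rose by 0.41 each. Of 17 translation factors, 7 were higher and 3 lower in OE (41.18% and 17.65%). With EGCG, 2 were higher and 8 lower (11.76% and 47.06%). The shares of these factors in OE are close to those of all tested genes. Gfm1, the elongation factor that moves the ribosome along, was at 9.92, 10.49 and 11.4 TPM in OE + EGCG, 17.9, 16.43 and 17.97 TPM in OE, and 10.79, 11.41 and 9.93 TPM in control, with OE above all other libraries (0.66 ± 0.070 SE against control; limma, Benjamini-Hochberg adjusted p = 5.45e-05). The peptide deformylase Pdf rose by 0.78 in OE and fell by 0.71 with EGCG, and the release factor Mtrf1 rose by 0.49 and fell by 0.35. The 3 factors lower in OE were Mtrf1l (-0.33), Mtfmt (-0.28) and Gfm2 (-0.19). Mtrf1l and Gfm2 were also the 2 higher with EGCG (0.45 and 0.27).

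Of 19 tested mitochondrial tRNA synthetases and related enzymes, 11 were higher and 1 lower in OE, and 7 were lower with EGCG than in OE; Cars2, Sars2, Qrsl1 and Tars2 rose by 0.80, 0.74, 0.68 and 0.59 in OE. Of 23 genes of mitochondrial DNA transcription and RNA processing, 6 were higher and 3 lower in OE, and 3 were higher and 8 lower with EGCG; Elac2, which trims tRNA ends, rose by 0.69 in OE and fell by 0.70 with EGCG. Of the synthetases 57.9% were higher and 5.26% lower in OE, and 36.8% were lower with EGCG. Of the 23 transcription and processing genes 26.1% were higher and 13.0% lower in OE, and 13.0% higher and 34.8% lower with EGCG. The background was 38.2% higher and 21.3% lower in OE and 18.8% higher and 34.1% lower with EGCG. In both lists the share lower with EGCG is close to it. The share higher in OE is below it for the transcription and processing genes.

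**Figure D4:**
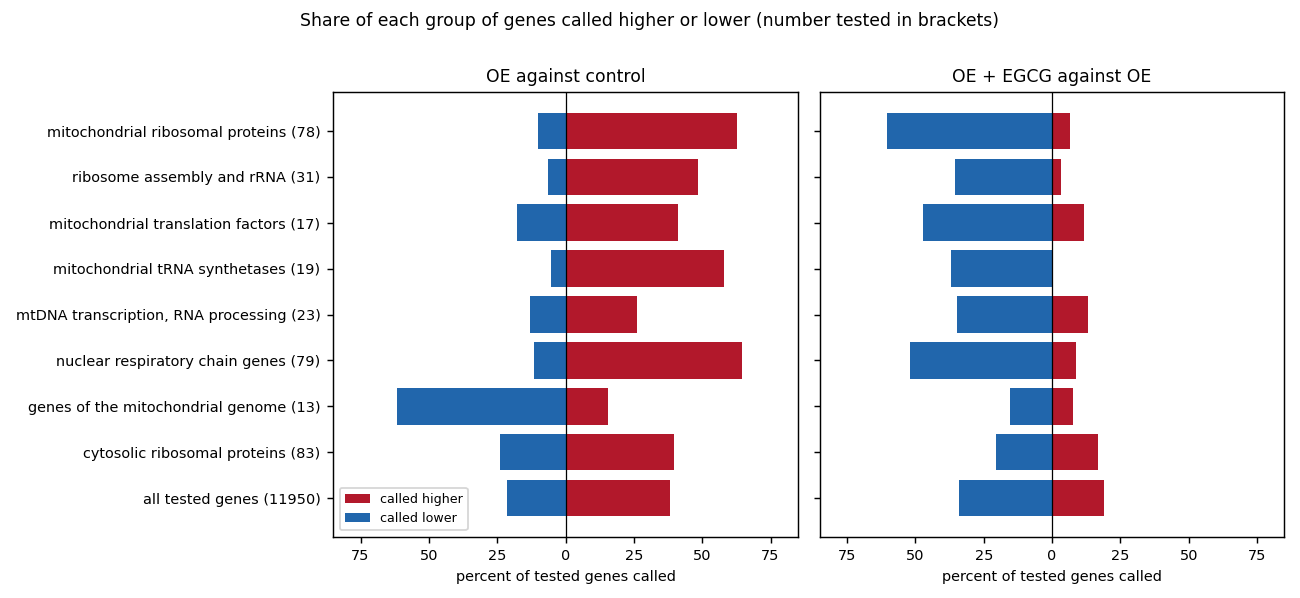
Bars give the percent of tested genes of each group called higher (red, to the right) or lower (blue, to the left), for OE against control and for OE + EGCG against OE, with the number tested in brackets. The mitochondrial ribosomal proteins (62.8% higher in OE) and the nuclear respiratory chain genes (64.6%) show the largest red shares of the 9 bars at left, and the 13 genes of the mitochondrial genome show mostly blue.

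The nuclear genes of the respiratory chain and ATP synthase were the group nearest to the members: 51 of 79 were higher and 9 lower in OE, with a median of 0.31, and 7 were higher and 41 lower with EGCG, with a median of -0.21. The summed TPM of the members over that of these genes was 0.192 ± 0.00563 in OE + EGCG, 0.193 ± 0.00161 in OE and 0.209 ± 0.00648 in control (SD, n = 3 each), and every library of both transfected groups lay below every control library. Cytosolic ribosomal proteins were 33 of 83 higher and 20 lower in OE, and 14 higher and 17 lower with EGCG. The shares in OE are close to the background of all tested genes, as is the share higher with EGCG, while the share lower with EGCG (20.5%) is below the 34.1% of all tested genes. The summed TPM of the members over that of the cytosolic proteins was 0.071 ± 0.00228 in OE + EGCG, 0.084 ± 0.00186 in OE and 0.0771 ± 0.00236 in control (SD, n = 3 each). The protein-coding genes of the mitochondrial genome, which this ribosome translates, were mostly lower in OE than in control: 2 of 13 were higher and 8 lower, with a median of -0.77. With EGCG against OE 1 was higher and 2 lower, with a median of -0.07. Their summed TPM was 11960 to 13960 in OE + EGCG, 11870 to 12540 in OE and 18810 to 22470 in control.

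The RNAs of the ribosome itself were lower in OE. The small-subunit RNA mt-Rnr1 was at 8964, 9946 and 11560 TPM in OE + EGCG, 11040, 8534 and 8617 TPM in OE, and 14610, 13860 and 12780 TPM in control, and fell by 0.56 ± 0.148 in OE against control (SE; limma, Benjamini-Hochberg adjusted p = 0.00985). The large-subunit RNA mt-Rnr2 was at 64600, 64140 and 68700 TPM in OE + EGCG, 54290, 53840 and 52640 TPM in OE, and 82990, 83760 and 76840 TPM in control, and fell by 0.60 ± 0.162 (SE; limma, Benjamini-Hochberg adjusted p = 0.0107). In both, the 3 control libraries were the highest. With EGCG against OE neither was called. Every OE + EGCG library of mt-Rnr2 lay above every OE library (0.30 ± 0.162 SE; limma, Benjamini-Hochberg adjusted p = 0.152). Neither RNA was called between OE + EGCG and control. Within the members, the summed TPM of the large subunit over the small was 2.09 ± 0.0135 in OE + EGCG, 2.01 ± 0.0150 in OE and 2.00 ± 0.0438 in control (SD, n = 3 each).

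Transcripts of a member did not always move as its total. The authors estimated TPM for 343 annotated transcripts of the members, of which 173 passed the filter: 72 were higher and 17 lower in OE against control (background 29.9% and 16.4% of 23437 transcripts), and 8 were higher and 61 lower with EGCG against OE (11.5% and 21.7%). OE + EGCG against control gave 3 higher and 9 lower (6.41% and 4.56%). Transcripts annotated as protein coding held 79.5% ± 0.852 of the members' TPM in OE + EGCG, 79.1% ± 0.585 in OE and 79.1% ± 0.441 in control (SD, n = 3 each), shares that differ by less than the spread between libraries. Types come from an annotation of an older build (GENCODE M21), and for 15 members the most abundant transcript was not of type protein coding.

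Several of the members with large changes were among those 15. In Mrps26 a transcript with a retained intron, Mrps26-201, held 91.0% of the TPM and was at 8.02, 8.76 and 6.47 TPM in OE + EGCG, 14.01, 13.84 and 13.42 TPM in OE, and 8.29, 9.56 and 9.37 TPM in control. The coding Mrps26-202 was at 0.77, 0.87 and 0.84 TPM, 1.07, 1.13 and 1.0 TPM, and 1.27, 1.09 and 1.0 TPM in those groups. With protein-coding transcripts alone Mrps26 was not called in OE against control (-0.04 ± 0.067 SE; limma, Benjamini-Hochberg adjusted p = 0.662) and fell by 0.18 with EGCG. Mrps16 and Mrps25 still rose in OE on that basis, by 0.31 each, while Mrpl32 lost its call (-0.17; adjusted p = 0.0828, limma with Benjamini-Hochberg). Mrps14 rose by 0.83. With EGCG against OE, Mrps16 lost its call (-0.08; adjusted p = 0.371, limma with Benjamini-Hochberg). Mrpl3 lost its calls in OE against control (0.27; adjusted p = 0.122, limma with Benjamini-Hochberg) and with EGCG against OE (-0.34; adjusted p = 0.0611, limma with Benjamini-Hochberg).

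Protein-coding transcripts of Mrps35 summed rose by 0.84 in OE against control and differed by 0.02 ± 0.080 between OE + EGCG and control (SE; limma, Benjamini-Hochberg adjusted p = 0.879), where the gene total was lower.

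Mrpl13 and Mrps24 were singled out after their values were seen. The total of Mrpl13 was called in no comparison, while the coding Mrpl13-205 was at 4.21, 4.9 and 4.97 TPM in OE + EGCG, 5.65, 6.6 and 5.74 TPM in OE, and 4.21, 5.36 and 4.39 TPM in control, and the nonsense-mediated decay transcript Mrpl13-202 was at 4.75, 4.39 and 3.39 TPM, 2.81, 1.86 and 3.21 TPM, and 4.47, 3.77 and 4.4 TPM. The coding transcript rose by 0.31 in OE (limma over transcripts, Benjamini-Hochberg adjusted p = 0.0326) and fell by 0.30 with EGCG (0.0496); the other fell by 0.54 (0.0236) and rose by 0.52 (0.0353). The total of Mrps24 rose by 0.39 in OE and fell by 0.43 with EGCG, but control replicates differed in how it was shared out: the retained-intron Mrps24-201 was at 12.34, 11.13 and 11.05 TPM in OE + EGCG, 12.34, 13.14 and 15.38 TPM in OE, and 0, 2.6 and 10.9 TPM in control, and the coding Mrps24-205 was at 0.96, 1.49 and 0.28 TPM, 3.45, 2.39 and 2.56 TPM, and 11.42, 8.58 and 2.72 TPM. Control replicate 3 lay with the transfected libraries, so the split between these overlapping transcripts rests on control replicates 1 and 2. With protein-coding transcripts alone Mrps24 had the opposite sign in OE (-1.01 ± 0.383 SE; limma, Benjamini-Hochberg adjusted p = 0.0376).

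**Figure D5:**
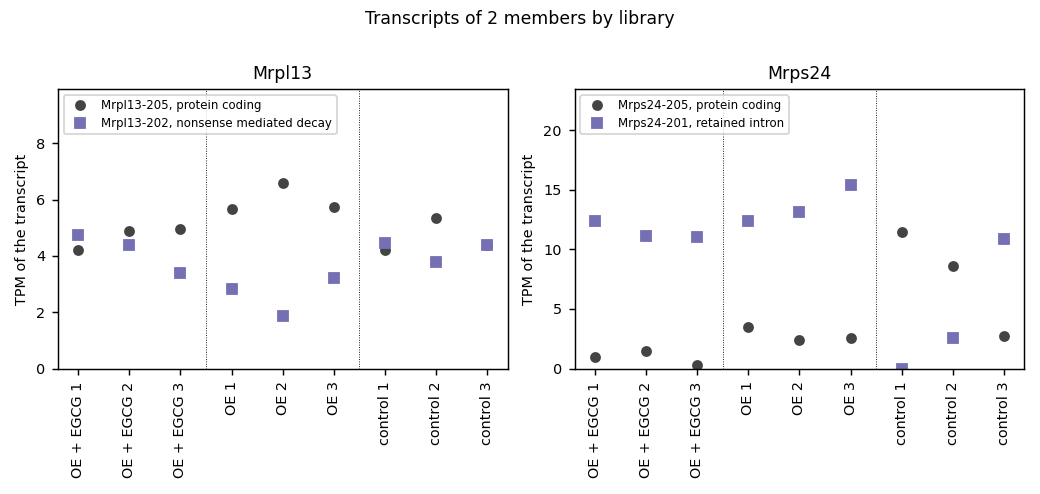
TPM of transcripts of Mrpl13 and Mrps24 in each library, from OE + EGCG at left to control at right. Mrpl13-205 lies well above Mrpl13-202 in the 3 OE libraries and closer to it in the other 6, and Mrps24-201 and Mrps24-205 change places between control replicates 1 and 3.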

How the data were processed

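Total RNA from MIN6 cells was sequenced in 9 libraries (RNeasy extraction and a stranded total RNA kit, per the labels' protocols). Sample titles gave the groups and replicate numbers. The authors deposited TPM per transcript. The submitters' processing notes name bcl2fastq 2.20, FastQC 0.11.9, cutadapt 2.8, STAR 2.7.1a, RSEM 1.2.31 and GRCm39 as build; the sources used here name no annotation release or strand setting. As TPM is relative, a rise of abundant RNAs lowers all others, and depth is unknown. Small structured RNA genes outside the mitochondrial genome held 48.9% ± 0.877 of the TPM in OE + EGCG and 49.7% ± 0.359 in OE. In control they held 44.3% ± 0.809 (SD, n = 3 each). The part of this difference in the fold changes was not tested.

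Of 142435 transcripts, 138346 (97.13%) matched GENCODE M21, an annotation of an older build used for names, types, lengths and overlaps only; unmatched ones held 18.0% to 20.6% of a library's TPM. Pseudogenes with matching symbols (5) are not members. TPM was summed per gene, and 11950 genes that reached 1 TPM in 3 or more libraries were tested with limma 3.58.1 (R 4.3.3, trend) on log2(TPM + 1), a scale that understates changes of low genes. All 9 libraries entered 1 fit, two-sided, with Benjamini-Hochberg adjustment at 0.05 over all tested genes. Errors of TPM are SD and those of log2 fold changes limma's SE. The fit was tested on simulated data. Other steps used Python 3.11.15.

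The members, gene lists and tests were chosen with earlier results of these data known. Named members are the 8 highest and 8 lowest fold changes of the first 2 comparisons, the 5 highest and 5 lowest of the third, the 3 highest and 3 lowest levels, and members of well-known role; of other lists, up to 4 called genes of smallest adjusted p. Other members and other list genes were named after their values were seen. Alternatives covered the pseudocount, the filter, 3 scalings, the groups in the fit, a replicate block, protein-coding transcripts alone and leaving out each library. The values of some transcripts are not reported here.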

Additional observations from a re-analysis of the deposited data

How the results depend on the processing

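For OE against control, the 49 higher calls became 31 with quantile normalization and lay between 41 and 49 without each library of the groups compared; the 8 lower calls became 5 with no filter, with the groups compared alone and with the replicate block, 18 with quantile normalization, 14 after rescaling to nuclear protein-coding genes and 15 with median-ratio scaling, and lay between 5 and 7 without each library (5 without OE replicate 2 or OE replicate 3). For OE + EGCG against OE, the 5 higher calls became 1 with no filter, 2 with the replicate block and 11 with quantile normalization or rescaling to nuclear protein-coding genes, and lay between 2 and 3 without each library; the 47 lower calls became 30 after that rescaling and lay between 40 and 43 without each library. For OE + EGCG against control, the 2 higher calls became 5 after that rescaling, 0 with the groups compared alone, 1 with the replicate block and 6 with protein-coding transcripts alone, with 0 to 11 without each library; the 9 lower calls became 3 with the groups compared alone and 5 with the block, with 3 to 9 without each library. Mrps35 turned to 0.02 there with protein-coding transcripts alone. Quantile normalization also took the call from Mrpl23 with EGCG against OE (0.02) and turned Mrpl54 to a call of 0.155. Whether the replicate numbers pair libraries is not stated. In deviations from their group means, same-numbered libraries correlated at 0.0125 to 0.149, -0.00819 to 0.214 and -0.021 to 0.0905 in the 3 comparisons. Libraries of different number correlated at -0.12 to 0.0382, -0.238 to 0.121 and -0.119 to 0.0609. These ranges overlap and do not settle whether the numbers pair libraries. A pseudocount of 0.1 changed no count. The cause of these shifts was not tested beyond each alternative's construction.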
